A study of Homo sapiens with 12 samples.

Results

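The comparison set 4 RNA sequencing libraries of replicate 1 against 4 of replicate 2, which the submitted file names place in experiments 2 and 3, and left out the 4 libraries of replicate 3, from experiment 5. It used 8 of the 12 libraries of the series, chosen by the experiment number alone. Libraries were paired by treatment group, so that each pair held 1 library of either experiment. The cells were HMC3, an immortalized line made from human fetal microglia, the resident macrophages of the brain. The study asked how the ectodomain of the receptor EphB2 acts on microglia through its membrane ligand ephrin-B1. Ctrl cells had negative control siRNA for 48 h and the pre-clustered Fc control protein Ctrl-Fc at 2 µg/mL for 24 h. EphB2 cells had the same siRNA and pre-clustered EphB2-Fc, the receptor ectodomain joined to an Fc tail, at that dose and time. The ephrin-B1 siRNA cells had siRNA against ephrin-B1 and Ctrl-Fc, and the EphB2 + ephrin-B1 siRNA cells had that siRNA and EphB2-Fc. All libraries came from this 1 line, and the labels give no passage number, thaw or library date by experiment. Anything that differed between the experiments as a whole therefore cannot be told apart from the cultures themselves.

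A cultured line can differ between experiments in its basal state without any treatment. Cells keep a low level of interferon signaling in which interferon receptors, JAK kinases and STAT and IRF factors sustain antiviral genes and the machinery that loads peptides on MHC molecules. They also build and remodel an extracellular matrix of collagens, laminins and fibronectin, and they tune growth through ERK and YAP signaling with cell density, stiffness and serum. Ribosomal protein mRNAs form a further program that cells regulate together with growth.

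The libraries held 13810195 to 25785591 estimated counts in replicate 1 and 17422496 to 21035350 in replicate 2. Most defining microglial genes had few counts over all 8 libraries, with 0 of AIF1, 2 of TYROBP, 3 of CX3CR1, 10 of SPI1 and 12 of P2RY12. ITGAM had 39 counts, TREM2 74, TMEM119 78 and PTPRC 83, whereas CSF1R reached 309. The siRNA target EFNB1, which encodes ephrin-B1, had 20.5, 15.4, 7.12 and 6.60 CPM in replicate 1 and 17.6, 18.8, 6.61 and 6.12 CPM in replicate 2. The siRNA libraries were the lowest in both experiments. EFNB1 did not pass the test between experiments, with a log2 difference of 0.03 (SE 0.10, adjusted p = 0.872, edgeR quasi-likelihood test with Benjamini-Hochberg adjustment), and neither did EPHB2 (-0.13, adjusted p = 0.177). Here and below, the 4 values of an experiment run from Ctrl through EphB2 and ephrin-B1 siRNA to the combined treatment. CPM is counts per 1000000 of a library after edgeR's scaling. A positive log2 difference is higher in replicate 1, and adjusted p comes from that same test over 20658 genes. The share of counts on mitochondrial genes was 0.564% to 0.72% in replicate 1 and 0.381% to 0.590% in replicate 2. The share on transcripts that could not be paired with a gene was 4.57% to 4.75% against 4.02% to 4.13%.

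The experiment number was the main axis of these libraries. The first principal component of log2 CPM over genes of at least 5 CPM held 62.3% of the variance, with scores of -24.16 to -22.54 in replicate 1 and 22.98 to 23.92 in replicate 2. Correlations of log2 CPM across genes, which are not independent replicates, were 0.978 to 0.989 between libraries of 1 experiment and 0.947 to 0.96 between experiments. Of the 20658 genes, 3350 (16.2%) were higher in replicate 1 and 3675 (17.8%) lower at an adjusted p under 0.05. At least 2-fold differences were more lopsided, with 918 genes (4.44%) higher and 330 (1.60%) lower, and 1190 of these 1248 genes had the same sign in all 4 pairs. All 4 libraries of replicate 1 lay above all 4 of replicate 2 for 2535 genes (12.3%), and below them for 2827 (13.7%). Each replicate number is a single experiment, so these p-values measure only the spread between libraries of these 2 experiments. The higher and lower counts also rest on the scaling, since limma on log2(TPM + 1) called 4674 genes higher and 420 lower with the median of the genes of at least 5 CPM at 0.27, against -0.03 here. The genes CCND1, CD44, CD68, COL1A2, ECT2, EFNA5, EPHA5, H1-2, HSP90AA1, MMP14, TRIM5, TRIM21 and VIM, lower in replicate 1 in the results that follow, did not pass in that unit.

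The genes that differed most toward replicate 1, among those of at least 5 CPM on average, included ICAM1, CCL5 and OASL of inflammation and interferon signaling. SYT13 (ENSG00000019505, chr11:45240302-45286341), a synaptotagmin family member of vesicle traffic, had 15.3, 12.4, 10.8 and 9.01 CPM in replicate 1 and 0.676, 0.569, 0.234 and 0.832 CPM in replicate 2. Every replicate 1 library was above every replicate 2 library, with a log2 difference of 4.34 (SE 0.23, adjusted p = 2.31e-07). CD248, endosialin of pericytes and fibroblasts, had 12.2, 8.53, 11.4 and 10.001 CPM in replicate 1 and 0.989, 0.443, 0.819 and 1.31 CPM in replicate 2, a log2 difference of 3.56. TSPYL5 (ENSG00000180543, chr8:97273488-97277928) was near-constant within each experiment at 42.4, 38.5, 44.4 and 45.02 CPM in replicate 1 and 4.58, 4.36, 5.03 and 4.51 CPM in replicate 2, and differed by 3.20 on the log2 scale, SE 0.08, adjusted p = 2.37e-09. ICAM1 (ENSG00000090339, chr19:10271093-10286615), the leukocyte adhesion ligand that interferon and NF-kB signaling both induce, had 29.2, 40.2, 36.7 and 50.4 CPM in replicate 1 and 3.12, 4.43, 4.62 and 4.87 CPM in replicate 2. Its means were 39.1 ± 8.82 and 4.26 ± 0.780 CPM (SD, n = 4), which gave 3.19 on the log2 scale, SE 0.09, adjusted p = 3.82e-09. The chemokine CCL5 had 32.9, 65.1, 37.2 and 55.4 CPM in replicate 1 and 4.11, 6.39, 4.85 and 6.89 CPM in replicate 2. It differed by 3.08 on the log2 scale, SE 0.09, adjusted p = 3.82e-09, and both experiments held their higher levels in the libraries with EphB2-Fc. The groups of each of these genes lay apart in all 4 pairs. By the same rule NRG2, a neuregulin growth factor (3.31), the amino acid transporter SLC7A3 (3.20) and the matrix-associated protein AEBP1 (2.77) were also strongly higher. The rest of the group were MID2 (3.20), PCDHAC2 (3.18), SLC12A7 (2.99) and OASL, which the interferon results describe.

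The genes that differed most toward replicate 2 were led by TMEM158 and POU3F3. TMEM158 (ENSG00000249992, chr3:45224466-45226287), a membrane protein first described as induced by Ras, had 4.73, 7.63, 2.90 and 5.10 CPM in replicate 1 and 94.4, 119.8, 40.01 and 72.6 CPM in replicate 2. The lowest replicate 2 library was still several-fold above the highest of replicate 1. It differed by -3.97 on the log2 scale, SE 0.09, adjusted p = 2.37e-09. The POU-domain transcription factor POU3F3 had 0.900, 1.30, 1.11 and 1.11 CPM in replicate 1 and 16.4, 19.2, 15.7 and 13.3 CPM in replicate 2 (-3.83, adjusted p = 1.28e-08). TENM2, a teneurin of cell adhesion (ENSG00000145934, chr5:166979029-168264157), had 27.7, 28.03, 24.5 and 22.02 CPM in replicate 1 and 241, 262, 145 and 149 CPM in replicate 2. It differed by -2.92 on the log2 scale, SE 0.10, adjusted p = 1.03e-08, with the ephrin-B1 siRNA libraries of replicate 2 below its negative control siRNA libraries. PRKAA2, a catalytic subunit of AMPK (-2.89), the muscarinic receptor CHRM3 (-2.83) and the glutathione transferase MGST1 (-2.56) were also lower in replicate 1. So were the bicarbonate transporter SLC4A4 (-2.56), ZNF300 (-3.08), MPP4 (-2.91) and KRTAP2-3 (-2.91). The last members of the group were less even. The mitochondrial import subunit TIMM22 had 0.225, 0, 10.3 and 0.553 CPM in replicate 1 and 27.8, 26.9, 18.4 and 7.19 CPM in replicate 2. It differed by -3.23 on the log2 scale, SE 0.70, adjusted p = 0.00423, and the experiments overlapped. The tetraspanin TSPAN7 had 3.98, 5.93, 4.06 and 12.4 CPM in replicate 1 and 33.6, 20.5, 171 and 15.3 CPM in replicate 2. It differed by -2.57 on the log2 scale, SE 0.61, adjusted p = 0.00716, and a single library of replicate 2 was far above the rest. TSPAN7 did not pass in the ephrin-B1 siRNA libraries alone.

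**Figure D1:**
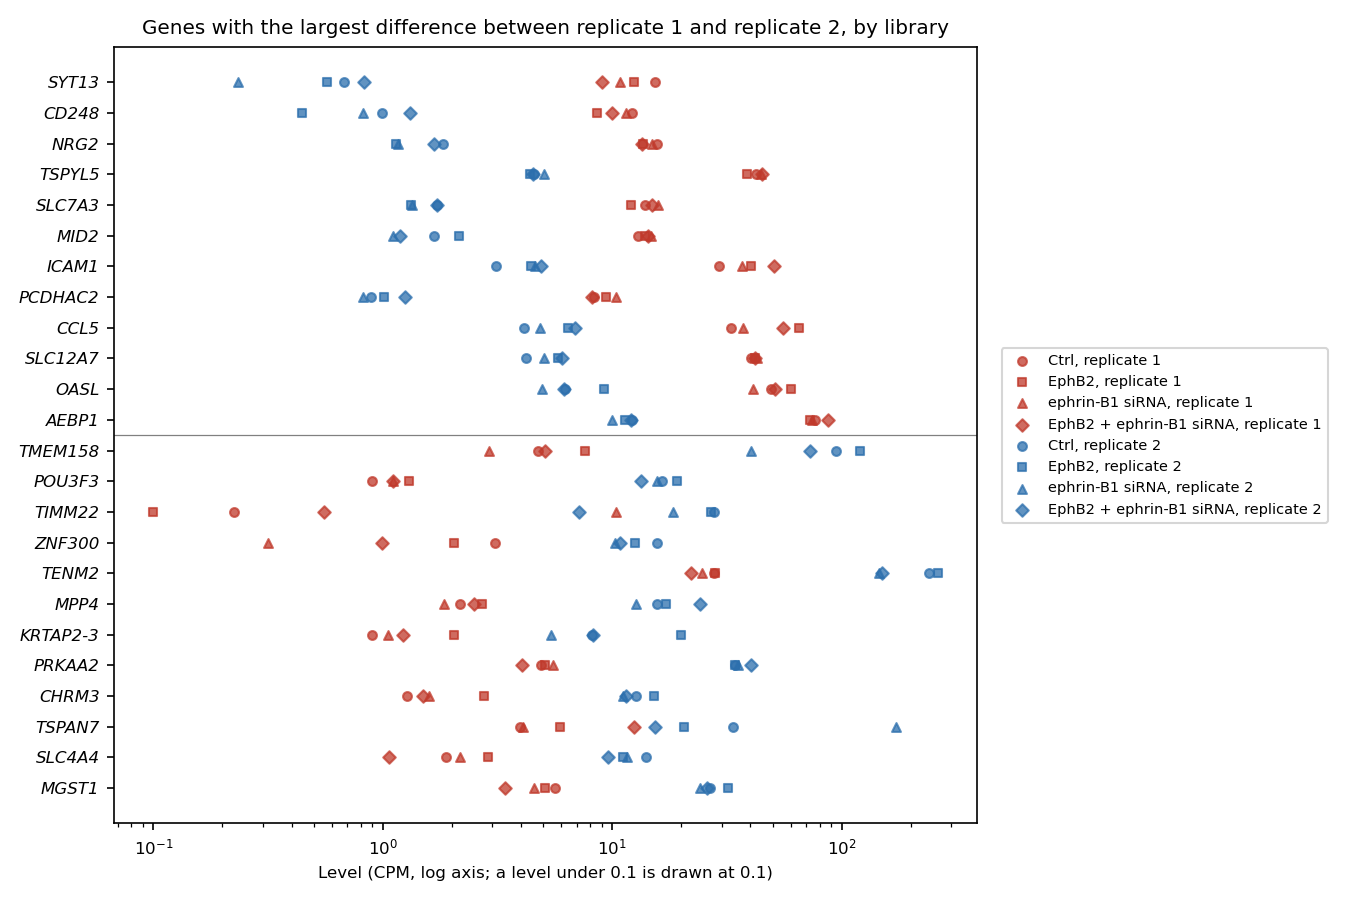
Level of the 12 genes with the largest positive and the 12 with the largest negative log2 difference, 1 point per library in CPM on a log axis, red for replicate 1 and blue for replicate 2, with a marker for each treatment group. The red and blue points lie apart for SYT13 to AEBP1 above the line and, on the other side, for TMEM158 to MGST1, except for TIMM22, where the ephrin-B1 siRNA library of replicate 1 (10.3 CPM) is above the lowest blue point (7.19 CPM).

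A few genes were near off in 1 experiment. CXCR5, a chemokine receptor of lymphocytes, had 4.95, 4.63, 3.80 and 2.10 CPM in replicate 1 and no count in any replicate 2 library. HS6ST2, a heparan sulfate sulfotransferase, had 1.65, 1.36, 2.00 and 1.23 CPM against no count. TFAP2B, a transcription factor of neural crest, had 2.48, 1.87, 1.90 and 2.33 CPM against at most 2 counts in any replicate 2 library. KIAA0040 had 1.13, 1.13, 1.21 and 1.26 CPM against at most 2 counts. These 4 genes, chosen after their values were seen, were all that had at least 1 CPM in every library of 1 experiment and at most 3 counts in each library of the other, and none did so in the other direction.

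Interferon-induced effectors were higher in replicate 1. Of 65 such genes, all of which passed the filter, 49 were higher and 2 lower, against 16.2% and 17.8% of all genes. At least 2-fold, 26 were higher and none lower, against 4.44% and 1.60% of all genes. Their median log2 difference was 0.77, against -0.01 over all genes. For 33 of the 65 every replicate 1 library was above every replicate 2 library, against 12.3% of all genes. OASL (ENSG00000135114, chr12:121017763-121039246), an oligoadenylate synthetase-like antiviral protein, had 49.4, 60.02, 41.2 and 51.1 CPM in replicate 1 and 6.24, 9.17, 4.91 and 6.18 CPM in replicate 2. The lowest library of replicate 1 was above the highest of replicate 2, and the means of 50.4 ± 7.72 and 6.63 ± 1.80 CPM (SD, n = 4) differed by 2.94 on the log2 scale, SE 0.08, adjusted p = 3.82e-09. IFIT2, which binds foreign RNA and blocks its translation, had 131, 158, 120.5 and 143 CPM in replicate 1 and 42.3, 48.4, 38.6 and 47.2 CPM in replicate 2. IFIT2 differed by 1.64 on the log2 scale, SE 0.05, adjusted p = 3.82e-09. HERC5, the ligase that couples the ubiquitin-like ISG15 to proteins, had 135, 157, 146 and 163 CPM in replicate 1 and 38.9, 58.9, 56.5 and 68.9 CPM in replicate 2. HERC5 differed by 1.45 on the log2 scale, SE 0.08, adjusted p = 2.57e-07. RSAD2, or viperin, differed by 2.64 and the apolipoprotein L member APOL6 by 1.25. The 2 lower genes were TRIM5 (-0.39, adjusted p = 0.000381) and TRIM21 (-0.33, adjusted p = 0.0101). TRIM21 did not pass without ephrin-B1 siRNA replicate 2 or without either EphB2 + ephrin-B1 siRNA library. Why these 2 were lower was not tested. RSAD2, both TRIM genes, IFI44L, IFI6, IFI27 and IFIH1 were named after their values were seen.

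The interferon difference was largest in the Ctrl pair. The median over the 65 genes was 1.07 in the Ctrl pair, 0.63 in the EphB2 pair, 0.80 in the ephrin-B1 siRNA pair and 0.56 in the EphB2 + ephrin-B1 siRNA pair, as log2 of the ratio of CPM + 0.5. IFI44L (ENSG00000137959, chr1:78619902-78646145) had 73.2, 123, 77.1 and 126 CPM in replicate 1 and 8.84, 40.04, 14.4 and 29.6 CPM in replicate 2. The lowest of all its values was that of Ctrl replicate 2. It differed by 2.22 on the log2 scale, SE 0.16, adjusted p = 2.27e-06 between experiments, and the difference was smaller with EphB2-Fc by 0.86 on the log2 scale (SE 0.13, adjusted p = 7.68e-07, interaction test in edgeR). IFI6, an interferon-induced protein of mitochondria and the endoplasmic reticulum, had 630.1, 791, 724 and 899.9 CPM in replicate 1 and 137, 402, 327 and 445 CPM in replicate 2, again with Ctrl replicate 2 lowest. Its interaction was -0.67 on the log2 scale (SE 0.11, adjusted p = 3.91e-06, interaction test in edgeR). IFI27 had 11.6, 17.2, 13.4 and 21.2 CPM in replicate 1 and 1.72, 4.62, 2.57 and 6.53 CPM in replicate 2. It differed by 2.10, and its Ctrl replicate 2 library was the lowest too. IFIH1, the RNA sensor MDA5, had 30.4, 10.2, 43.2 and 29.4 CPM in replicate 1 and 4.27, 13.9, 7.25 and 9.21 CPM in replicate 2. The experiments overlapped, and in the EphB2 pair replicate 2 was the higher. That overlap came from 1 library, EphB2 replicate 1 at 10.2 CPM, whereas the combined treatment, also with EphB2-Fc, had 29.4 CPM in replicate 1. IFIH1 did not pass in the EphB2-Fc libraries alone. Its log2 difference of 1.66 (SE 0.40, adjusted p = 0.00723) had an interaction of -2.01 on the log2 scale (SE 0.22, adjusted p = 2.85e-13, interaction test in edgeR). Of the 65 genes, 26 had a negative interaction with EphB2-Fc in edgeR and none a positive one, against 0.441% and 0.450% of all genes, and 59 had a fitted value below 0, against 50.7% of all genes. DESeq2 called none of them, and with 1 residual degree of freedom per gene the edgeR test rests nearly wholly on the spread shared across genes. In simulated data it made more false calls than its threshold allows, so these 26 calls are weak evidence of single genes. The 65 genes rest on the same 8 libraries and are not independent, so the counts of 26 and 59 are no test of the set. With the siRNA, 8 of the 65 had a negative and 2 a positive interaction, against 0.411% and 0.653% of all genes, and DESeq2 called none of these either.

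**Figure D2:**
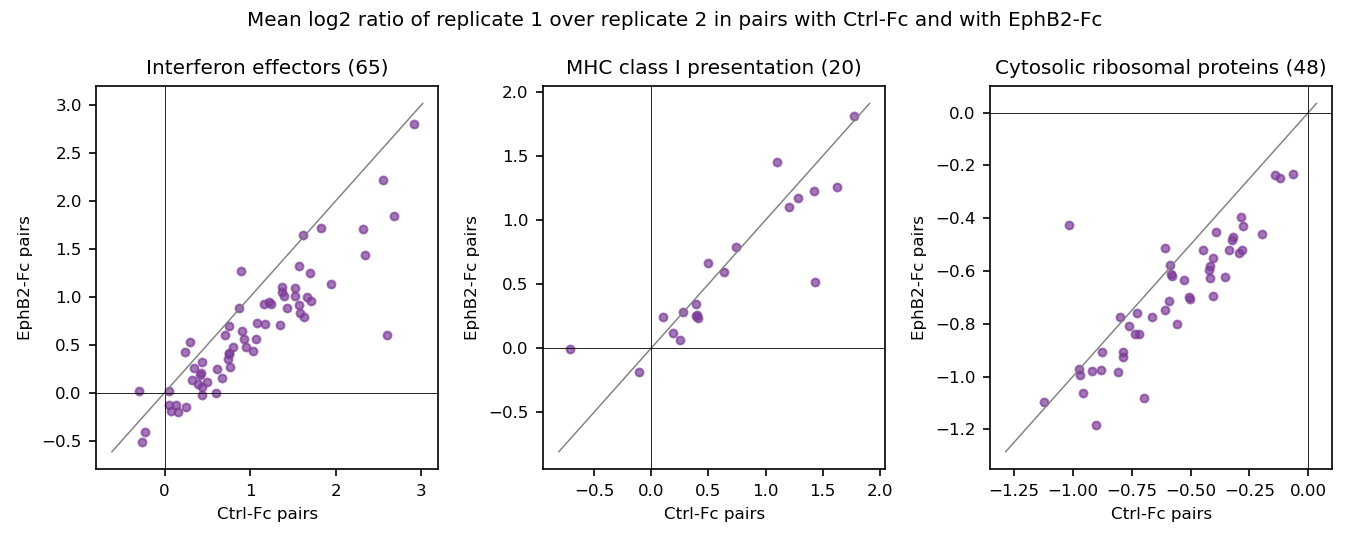
Mean log2 ratio of replicate 1 over replicate 2 in the 2 pairs with Ctrl-Fc (x axis) and the 2 pairs with EphB2-Fc (y axis), 1 point per gene for interferon effectors (65), MHC class I presentation (20) and cytosolic ribosomal proteins (48), with the line of equal ratios. Most interferon effectors lie above 0 on both axes and under the line, and the ribosomal proteins lie below 0 on both.

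The promoters of these genes were read for the letters that interferon response elements repeat. The motif searched was GAAANNGAAA, or TTTCNNTTTC on the other strand, in the 250 bases before and 50 after the start of each gene in the RefSeq promoter table of GRCh38.p14. It was found in 996 of all 27305 promoters (3.65%) and in 395 of the 13284 tested genes with an entry (2.97%). Of the genes at least 2-fold higher in replicate 1, 41 of 601 held it (6.82%), and of those at least 2-fold lower, 6 of 221 (2.71%). Among interferon effectors 34 of 52 held it (65.4%), with 12 of 17 (70.6%) of those at least 2-fold higher and 22 of 35 (62.9%) of the others, and of the MHC class I genes 9 of 16 (56.2%). Ribosomal protein promoters held it in 3 of 37 cases. Only 52 of the 65 effectors had an entry, and OASL, IFIT2 and APOL6 had none, so their promoters were not searched. The 5 sequences are of the effectors with the largest differences among those with an entry and a match before the start. They are shown 5′ to 3′ on the strand of the gene to give the element its place, with every match that lies whole in the stretch in capitals and the start as RefSeq gives it. IFI27 and IFI6 hold 2 matches in the stretch and the others 1.
IFI44L (chr1:78620350-78620409, plus strand): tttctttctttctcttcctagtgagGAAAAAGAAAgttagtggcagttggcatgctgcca
IFI27 (chr14:94110616-94110675, plus strand): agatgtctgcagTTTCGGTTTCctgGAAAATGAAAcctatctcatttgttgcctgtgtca
IFIH1 (chr2:162318685-162318730, minus strand): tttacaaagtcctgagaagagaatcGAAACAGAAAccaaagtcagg
HERC5 (chr4:88457020-88457079, plus strand): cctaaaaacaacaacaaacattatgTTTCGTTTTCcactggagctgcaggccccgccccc
IFI6 (chr1:27672251-27672310, minus strand): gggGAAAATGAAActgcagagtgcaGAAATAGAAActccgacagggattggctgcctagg
A match describes these letters in this window and is no measure of binding.

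The genes that carry the interferon signal were less uniform than its targets. Of 29 receptors, kinases, sensors and transcription factors, 13 were higher and 4 lower, against 16.2% and 17.8% of all genes, with a median of 0.17. IRF5, an interferon regulatory factor, had 6.38, 7.35, 8.07 and 6.92 CPM in replicate 1 and 1.40, 0.759, 1.11 and 1.01 CPM in replicate 2, and differed by 2.73 on the log2 scale, SE 0.19, adjusted p = 1.49e-06. The RNA-sensing receptor TLR3 (1.29) and the DNA-sensing adaptor STING1 (0.84) were higher in replicate 1. MYD88, the adaptor of most Toll-like receptors, went the other way at 1.43, 2.66, 3.80 and 2.10 CPM in replicate 1 and 9.10, 13.9, 12.2 and 15.6 CPM in replicate 2. Every replicate 1 library lay below every replicate 2 library, with -2.37 on the log2 scale, SE 0.18, adjusted p = 2.98e-06. Of 12 interferon ligand genes only 4 passed the filter, and IFNL1, a type III interferon chosen after its value was seen, was the single call at 3.86, from mean levels of only 0.517 and 0.0297 CPM. It did not pass in the ephrin-B1 siRNA libraries alone.

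MHC class I presentation was higher in replicate 1 as a group. Of its 20 tested genes of 22, 15 were higher, against 16.2% of all genes, and none lower, against 17.8%. Of these, 6 were at least 2-fold higher, against 4.44%, and the median was 0.63. B2M (ENSG00000166710, chr15:44711358-44718851), the light chain that all class I molecules share, had 560.0, 660.0, 735 and 617 CPM in replicate 1 and 188, 263, 229 and 269.5 CPM in replicate 2. The experiments did not overlap and differed by 1.44 on the log2 scale, SE 0.07, adjusted p = 2.31e-07. TAP1, a subunit of the transporter that brings peptides into the endoplasmic reticulum, had 49.9, 66.98, 55.98 and 69.3 CPM in replicate 1 and 17.8, 29.03, 25.8 and 30.9 CPM in replicate 2 (1.24). HLA-E (0.77), ERAP2, an aminopeptidase that trims those peptides (0.61), and HLA-B (2.15, named after its value was seen) differed in the same direction. HLA genes share sequence, so the split of reads among them is uncertain. HLA-C and HLA-G of class I and HLA-DRB1, HLA-DRB5 and HLA-DQB1 of class II did not pass the count filter. Whether counts of HLA genes lay on transcripts that could not be paired with a gene was not tested. MHC class II genes were at low levels, and 6 of 11 tested of 14 were higher with none lower. CD74, the invariant chain, had 9.31, 23.6, 12.3 and 21.9 CPM in replicate 1 and 2.91, 7.08, 4.62 and 10.04 CPM in replicate 2. Its lowest replicate 1 library (Ctrl) was below the highest of replicate 2, and it differed by 1.46 on the log2 scale, SE 0.12, adjusted p = 4.04e-06. CIITA, the coactivator of class II genes, differed by 0.40 (adjusted p = 0.00727) and did not pass in the Ctrl-Fc or the negative control siRNA libraries alone.

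More cytokine and chemokine genes were higher than lower in replicate 1. Of 32 tested genes of 36, 14 were higher and 3 lower, against 16.2% and 17.8% of all genes, and the median was 0.73. The pair medians, of CPM + 0.5, were 0.09 in Ctrl, 0.61 in EphB2, 0.46 in ephrin-B1 siRNA and 0.50 in the combined treatment. In the Ctrl-Fc libraries alone the fitted median was 0.44, and 9 of the tested genes were under 1 CPM in every library. At least 2-fold, 7 were higher and 2 lower, against 4.44% and 1.60%. CXCL12, a chemokine of stromal cells, had 4.35, 5.37, 3.11 and 4.35 CPM in replicate 1 and 0.312, 0.380, 0.175 and 0.119 CPM in replicate 2 and differed by 4.09 on the log2 scale, SE 0.27, adjusted p = 1.01e-06. CSF1, the survival factor of microglia, differed by 0.94. CXCL8 (1.11) and CXCL1 (1.36), neutrophil chemokines named after their values were seen, were higher as well, though CXCL8 did not pass without the treatment term. IL11, a fibrogenic member of the interleukin-6 family, went the other way at 50.3, 66.2, 37.5 and 56.9 CPM in replicate 1 and 112, 127, 87.4 and 147 CPM in replicate 2. The experiments did not overlap and differed by -1.17 on the log2 scale, SE 0.07, adjusted p = 3.66e-07. IL6 itself did not pass (0.19, adjusted p = 0.353). NF-kB subunits, feedback genes and targets counted 9 higher and 3 lower of 27, with a median of 0.12, so ICAM1 was far from the typical member. Complement genes counted 2 higher and 3 lower of 19 tested of 23, below both shares over all genes. In limma on log2(TPM + 1) the counts were 1 and 1. Their summed level was 544 to 611 CPM in replicate 1 and 669 to 833 CPM in replicate 2. For CD59 (-0.55) and CD55 (-1.12) every replicate 1 library was below every replicate 2 library, as for 13.7% of all genes.

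Matrix genes included large differences in both directions, and in collagens, basement membrane, glycoproteins and integrins more members were higher than lower in replicate 1. Over all genes, 16.2% were higher and 17.8% lower. Fibronectin, FN1 (ENSG00000115414, chr2:215360440-215436073), the matrix glycoprotein with the highest level here, had 7185, 8078, 6555 and 7363 CPM in replicate 1 and 17113, 17735, 11719 and 12966 CPM in replicate 2. Each replicate 1 library was below each replicate 2 library, with -1.01 on the log2 scale, SE 0.08, adjusted p = 5.44e-06. Thrombospondin-1, THBS1, moved opposite at 3646, 3624, 2664 and 3015 CPM in replicate 1 and 1756, 1728, 948 and 988 CPM in replicate 2. THBS1 differed by 1.31 on the log2 scale, SE 0.09, adjusted p = 1.9e-06. The main type I collagen chain COL1A1 did not pass (0.04, adjusted p = 0.634), whereas COL1A2, its partner in the same triple helix, was lower in replicate 1, at -0.92 on the log2 scale, SE 0.07, adjusted p = 4.57e-06. FN1, THBS1, COL1A1 and SPARC (0.71) were named after their values were seen. Of 16 tested genes of 17 for fibrillar and beaded collagens, 9 were higher and 2 lower, with COL5A1 (0.90) and COL11A1 (0.75) higher and COL12A1 (-1.33) lower. Basement membrane genes counted 10 higher and 5 lower of 22, among them COL18A1 (1.90), laminin LAMA5 (1.25) and type IV collagen COL4A1 (0.87) on the higher side.

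Among 33 tested genes of 34 for matrix glycoproteins and proteoglycans, 14 were higher and 5 lower, against 16.2% and 17.8% of all genes. IGFBP7 had 300.3, 253, 285 and 278 CPM in replicate 1 and 85.3, 89.4, 93.4 and 85.4 CPM in replicate 2. It differed by 1.66 on the log2 scale, SE 0.06, adjusted p = 1.28e-08. The microfibril protein MFAP2 (2.32) was higher too, whereas the microfibril partner LTBP2 (-1.67) and fibulin FBLN2 (-1.63) were lower. Matrix enzymes and crosslinkers showed no common direction, with 9 higher and 13 lower of 34 tested of 35, and a median of 0.00. In limma on log2(TPM + 1) the counts were 12 and 6. At least 2-fold, 4 were higher and 4 lower in edgeR, against 4.44% and 1.60% of all genes. The secreted protease ADAMTS1 had 106, 131, 73.4 and 99.1 CPM in replicate 1 and 407, 526, 282 and 346 CPM in replicate 2. The experiments lay well apart and differed by -1.92 on the log2 scale, SE 0.05, adjusted p = 3.2e-09. Lysyl oxidase, LOX, which crosslinks collagen, had 122, 147, 86.2 and 104 CPM in replicate 1 and 331, 423, 214 and 295 CPM in replicate 2 (-1.44). The membrane protease MMP14 differed by -0.79, while ADAMTS12 was higher (1.12). Of 25 integrins and adhesion receptors, 13 were higher and 5 lower. ITGA1, the alpha 1 subunit of a collagen receptor, had 54.6, 43.01, 52.3 and 45.3 CPM in replicate 1 and 11.2, 10.1, 10.4 and 11.05 CPM in replicate 2. It was apart in every pair and differed by 2.18 on the log2 scale, SE 0.07, adjusted p = 1.3e-08. The cadherins CDH6 (2.02) and CDH13 (1.03) were higher, and ITGA7, a laminin receptor subunit (-1.37), and the hyaluronan receptor CD44 (-0.70, named after its value was seen) were lower. Contractile genes counted 7 higher and 5 lower of 19, and TGF-beta and BMP genes 10 and 6 of 25.

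Growth-linked early genes were lower in replicate 1. Of 30 immediate early and ERK feedback genes, 3 were higher, against 16.2% of all genes, and 19 lower, against 17.8%, with a median of -0.33. In limma on log2(TPM + 1) the counts were 2 and 5 and the median -0.01. EGR1, an immediate early transcription factor, had 5.48, 5.48, 10.4 and 9.49 CPM in replicate 1 and 25.1, 15.7, 42.2 and 32.8 CPM in replicate 2. Each of its replicate 1 libraries was below each replicate 2 library, at -1.88 on the log2 scale, SE 0.10, adjusted p = 3.38e-07. DUSP6, the phosphatase that ERK induces to shut itself off, had 5.25, 4.47, 7.18 and 6.36 CPM in replicate 1 and 13.6, 14.4, 22.3 and 25.1 CPM in replicate 2. It differed by -1.69 on the log2 scale, SE 0.11, adjusted p = 8.76e-07, DUSP4 differed by -1.45 and MYC by -0.73. YAP and TEAD targets counted 3 higher and 9 lower of 18, with a median of -0.22 that became 0.12 in limma on log2(TPM + 1), where the median of all genes of at least 5 CPM was 0.27. The matricellular target CCN1 had 516, 605, 495 and 537 CPM in replicate 1 and 1089, 1412, 1017 and 1097 CPM in replicate 2. It differed by -1.09 on the log2 scale, SE 0.05, adjusted p = 1.37e-07, and CCN2 differed by -0.85. Among 42 tested genes of 43 for growth factors and receptor tyrosine kinases, 14 were higher and 11 lower, with the EGF receptor ligand TGFA (1.72) on the higher side.

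Cytosolic ribosomal protein genes were lower in replicate 1 in all 48 cases, against 17.8% of all genes. Their median was -0.60 and the pair medians ran from -0.74 (EphB2) to -0.52 (Ctrl). RPL6 had 409.9, 328, 398 and 356 CPM in replicate 1 and 788, 644, 799 and 699 CPM in replicate 2. It differed by -0.97 on the log2 scale, SE 0.05, adjusted p = 1.15e-07. RPL14 had 138, 114, 139 and 119 CPM in replicate 1 and 276, 247, 262 and 240.3 CPM in replicate 2 (-1.01), and RPL5 differed by -0.95. For 43 of the 48 all replicate 1 libraries lay below all of replicate 2, against 13.7% of all genes, and 3 were lower by 2-fold or more, against 1.60%. These genes have many processed pseudogenes with which reads can be shared. In limma on log2(TPM + 1) the median was -0.30, and only 16 of the 48 passed as lower. With any 1 library left out, 44 to 46 were lower.

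In the remaining programs, counts of members are to be read against the 16.2% of all genes that were higher and the 17.8% that were lower. Replication-dependent histone genes, most of whose mRNAs lack a poly(A) tail and which rRNA depletion retains, counted 3 higher and 20 lower of 34, at a median of -0.25 that was 0.05 in limma on log2(TPM + 1), and H1-2 differed by -0.53. In that unit 7 histone genes were higher and 1 lower, and without EphB2 replicate 2 the lower count was 13. Mitosis genes counted 3 higher and 14 lower of 35, such as the cytokinesis factor ECT2 (-0.45), at a median of -0.10 that became 0.21 in limma on log2(TPM + 1), with 8 higher and 0 lower there. With no treatment term the lower count of mitosis genes was 2. For G1/S and replication genes the counts were 6 and 10 of 35, with RRM1 (-0.69) and cyclin D1, CCND1 (-0.59), lower. Heat shock genes counted 3 higher and 7 lower of 15 tested of 16, among them HSP90AA1 (-0.66), and their median of -0.15 became 0.12 in limma on log2(TPM + 1). For p53 targets the counts were 10 higher and 3 lower of 24, but 1 and 0 with no treatment term and 3 and 3 in the ephrin-B1 siRNA libraries alone. Stress genes of the NRF2 pathway and metallothioneins counted 11 and 2 of 25 tested of 26, with the metallothionein MT1F (1.81) and the quinone reductase NQO1 (0.71) higher. Lysosomal genes counted 14 and 5 of 28, with 8 higher when any 1 library with ephrin-B1 siRNA was left out. Fatty acid genes counted 3 and 4 of 16, with 8 higher without EphB2 replicate 2, and nuclear genes of the respiratory chain 7 and 8 of 38, with 5 lower without ephrin-B1 siRNA replicate 2. Cholesterol genes counted 5 and 12 of 27, and glycolysis and hypoxia genes 6 and 13 of 32, with 4 lower with no treatment term. ER stress and ATF4 targets counted 9 and 8 of 33 tested of 34, with 5 lower without EphB2 replicate 2 or either Ctrl library. Among them the amino acid transporter SLC7A5 had 586, 511, 463 and 559.9 CPM in replicate 1 and 246, 207, 181 and 167 CPM in replicate 2. It differed by 1.41 on the log2 scale, SE 0.07, adjusted p = 2.56e-07. Of the 13 mRNAs that mitochondria encode, 4 were higher and none lower, but their pair medians were 0.00, 0.91, 0.32 and 0.02, and the EphB2 pair stood apart with the low mitochondrial share of its replicate 2 library. Leaving out 1 library moved the count from 0 (without ephrin-B1 siRNA replicate 1) to 7 (without Ctrl replicate 1), and it was 1 without either EphB2 library, where the medians were 0.11 and 0.13. With an offset for GC content and length 12 of the 13 were higher. Among 19 Eph receptors and ephrins, 4 were higher and 3 lower, near the shares of 16.2% and 17.8% over all genes, with EPHB3 (0.85) and EPHA2 (0.32) on the higher side and EPHA5 (-0.85) and EFNA5 (-0.69) on the lower, of which EPHA5 did not pass in the EphB2-Fc libraries alone.

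**Figure D3:**
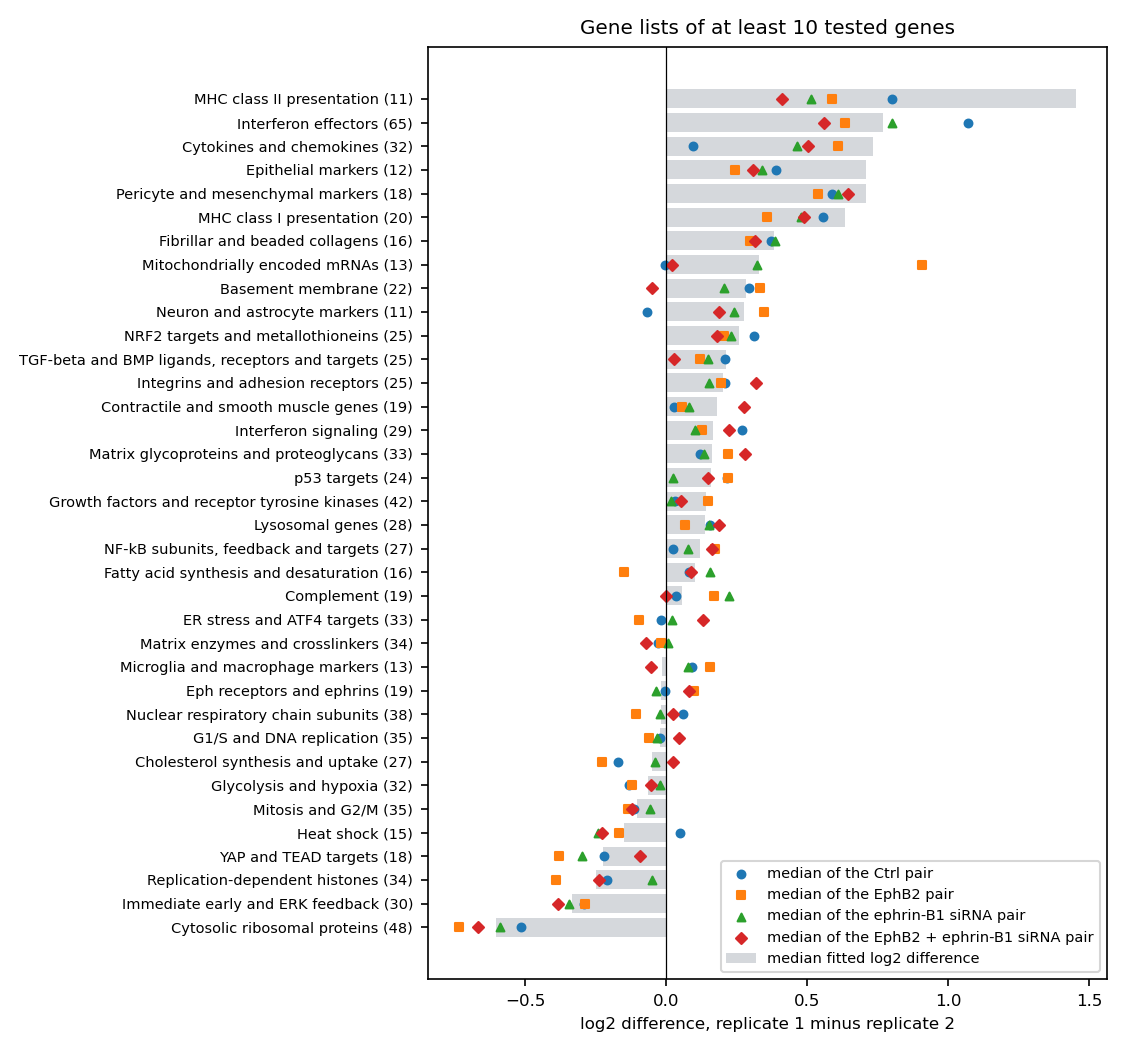
Median log2 difference, replicate 1 minus replicate 2, of each gene list with at least 10 tested genes (grey bars, fitted over 8 libraries) and the median of each of the 4 pairs (markers, log2 of the ratio of CPM + 0.5), with the number of tested genes in brackets. Interferon effectors, MHC class I and collagens lie above 0 and ribosomal proteins and early genes below 0 in all 4 pairs, the bars of lists with many low genes exceed their markers because the pseudocount shrinks these, and the bars of YAP targets, mitosis, heat shock and histones lie below 0 here but above 0 in limma on log2(TPM + 1).

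Among the lists of cell type markers, the mesenchymal and epithelial ones held more higher members than the 16.2% over all genes. The calls in the microglial, endothelial and neuron and astrocyte lists were near or below that share and the 17.8% of all genes that were lower. What part the makeup of the cultures had in the results was not tested. In bulk RNA, fewer cells of a type and less RNA per cell cannot be told apart. Of 18 pericyte and mesenchymal markers, 12 were higher and 2 lower, with the proteoglycan CSPG4 (1.04) higher. The transcription factor ZEB1 had 5.10, 4.13, 4.70 and 4.51 CPM in replicate 1 and 18.7, 19.2, 17.5 and 17.9 CPM in replicate 2, and differed by -1.99 on the log2 scale, SE 0.10, adjusted p = 1.45e-07. The summed level of the mesenchymal list was 2679 to 3153 CPM in replicate 1 and 2738 to 3442 CPM in replicate 2, so the sums overlapped, and vimentin, VIM, differed by -0.53 (named after its value was seen). Of 12 epithelial markers, 6 were higher and 1 lower. The adhesion molecule CDH1 had 18.5, 11.98, 21.4 and 11.7 CPM in replicate 1 and 4.99, 5.31, 5.03 and 0.891 CPM in replicate 2. It differed by 2.03 on the log2 scale, SE 0.25, adjusted p = 9.04e-05, and keratin KRT18 differed by -0.85. The summed epithelial level was 361.5 to 459.6 CPM against 532.9 to 598.5 CPM. Of 18 microglial and macrophage markers, 13 passed the filter, 2 were higher, 1 was lower and 8 were under 1 CPM in every library. Their sums were 193.6 to 219.3 CPM against 199.4 to 252.3 CPM. The lipopolysaccharide co-receptor CD14 had 6.90, 4.35, 7.33 and 4.94 CPM in replicate 1 and 1.25, 1.96, 0.526 and 1.48 CPM in replicate 2. It differed by 2.17 on the log2 scale, SE 0.31, adjusted p = 0.000283, and the lysosomal protein CD68 differed by -0.44 but did not pass in the Ctrl-Fc or the ephrin-B1 siRNA libraries alone. The 9 endothelial markers summed to 15.9 to 17.3 CPM against 12.4 to 13.9 CPM, with 2 higher and 1 lower. The 11 tested neuron and astrocyte markers of 13 summed to 53.3 to 66.5 CPM against 40.7 to 56.5 CPM, with 2 and 1.

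Small differences ran along chromosome arms, though not evenly within every arm. Over 11439 genes of at least 5 CPM on average in 41 arms with at least 40 such genes, the arm medians ran from -0.36 to 0.18, and 28 arms had the same sign in all 4 pairs. On 3p, the lowest, 225 of 309 genes were lower in replicate 1 (72.8%), against 29.3% of all genes of that level. Its median was -0.35, -0.40, -0.36 and -0.34 in the 4 pairs. The arm 19p had a median of -0.34 with 271 of 389 genes lower (69.7%), whereas 19q, the highest, had 0.18 with 45.4% of 434 genes higher, against 21.7% of all. The arms 11p (-0.33, with 140 of 208 lower) and 12q (-0.28, with 298 of 460 lower) stood beside 11q and 12p at 0.05 each. The other arms with a median of -0.20 or lower were 4p (-0.31), 3q (-0.23), 14q (-0.23), 8p (-0.22) and 9p (-0.20), followed by 8q and Xq at -0.14 each. In limma on log2(TPM + 1), where the median of all genes of at least 5 CPM was 0.27, the medians of 12q, 14q, 3q, 4p, 8p and 9p were between 0.01 and 0.10, above 0 but below that median. On chromosome 3, all 10 stretches of 20 Mb with at least 20 genes had a median below 0, from -0.42 to -0.18, as had 8 of 8 on chromosome 8 and 5 of 5 on chromosome 14. Below 0 were also 9 of 10 on chromosome 4, 5 of 7 on each of 11 and 12, and 1 of 3 on 19. Within 11q, the stretch from 60 to 80 Mb was at 0.13 and that from 100 to 120 Mb at -0.16. The treatments left no such shifts, with arm medians of -0.06 to 0.01 for EphB2-Fc and -0.03 to 0.06 for ephrin-B1 siRNA in the same libraries. The median difference also moved with GC content, from -0.14 in the lowest octile of genes to 0.08 in the highest. With an offset for GC content and length the medians were -0.35 for 3p, -0.39 for 19p and -0.25 for 12q. That offset moved other arms more, with 3q from -0.23 to -0.16, 8q from -0.14 to -0.08 and 4q from -0.05 to 0.05. The cause of the arm shifts was not tested.

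**Figure D4:**
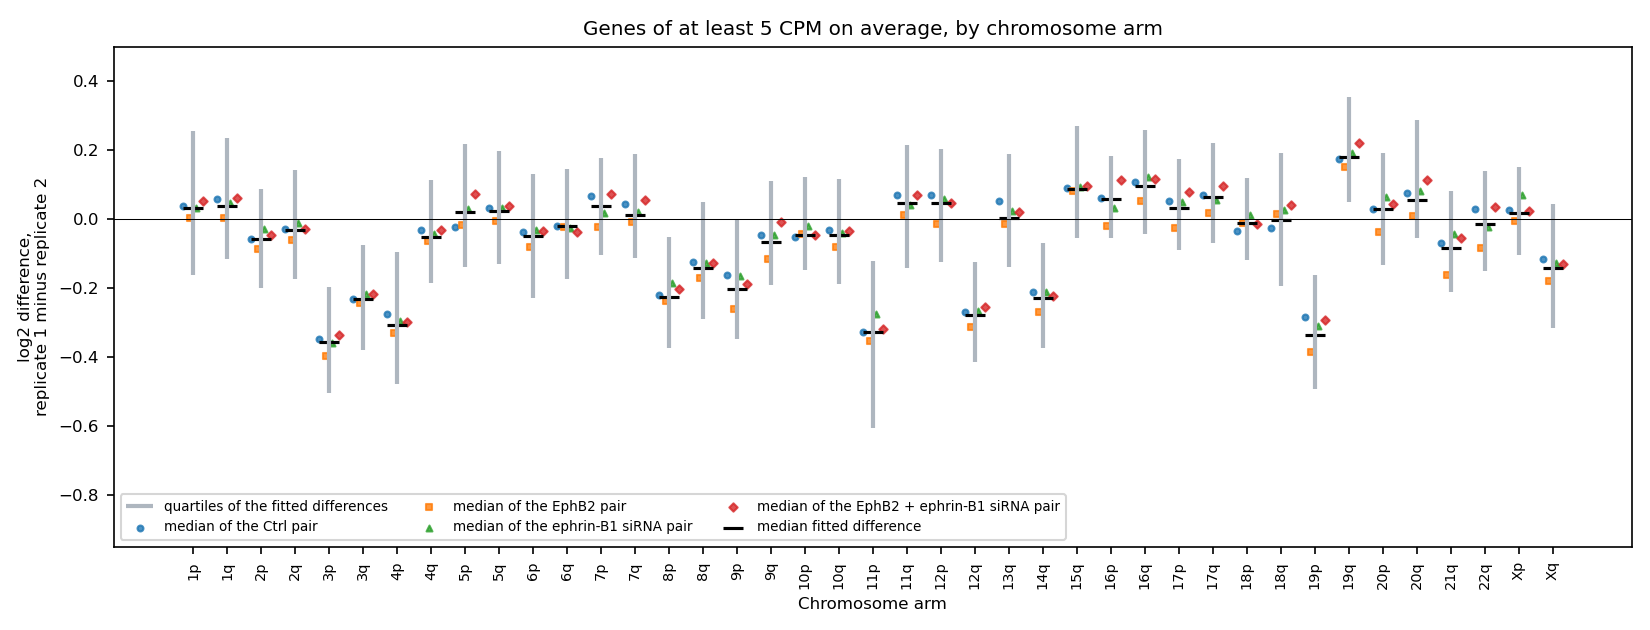
Log2 difference, replicate 1 minus replicate 2, of genes of at least 5 CPM on average by chromosome arm, as the median (black line) and quartiles (grey bar) of the fitted differences and the median of each of the 4 pairs (markers). The markers of 3p, 4p, 11p, 12q, 14q and 19p lie together below 0 (all but 3p, 11p and 19p of these above 0, though below the median of all genes, in limma on log2(TPM + 1)) and those of 19q above 0.

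Fewer genes passed the test for the treatments than for the experiment in these libraries. With the replicate number as a term, 1032 genes responded to EphB2-Fc and 2197 to ephrin-B1 siRNA, against the 7025 that differed between experiments (34.0%). The difference between experiments itself depended on EphB2-Fc for 184 genes (0.891%) and on the siRNA for 220 (1.06%) in edgeR, and for 10 and 7 genes in DESeq2, all of them among the edgeR calls. At an unadjusted p under 0.05 the edgeR counts were 1087 and 1400. Among the genes that both tools called for the siRNA was THBS1, and among those for EphB2-Fc the basement membrane collagen COL18A1.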

How the data were processed

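The cells, Fc proteins and siRNAs were as given above. RNA was depleted of ribosomal RNA and sequenced as paired reads of 100 bases. The authors quantified transcripts with kallisto (version not given in the sources used here) against Ensembl 109 cDNA of GRCh38, and deposited estimated counts and TPM per transcript and library. Of 188753 transcripts, 167067 were paired with 36315 genes by GENCODE 44, and 21686 were not and stayed out. The counts of a gene's transcripts were added up and rounded, and genes that reached 10 over the 8 libraries were fitted with edgeR 4.0.16 (R 4.3.3) by the quasi-likelihood test after TMM scaling, with treatment group and replicate number as terms and a Benjamini-Hochberg threshold of 0.05. Interactions with EphB2-Fc and siRNA were fitted in a second model. Where the study's methods name DESeq2, version 1.42.0 was an alternative, as was limma 3.58.1 on log2 of the TPM of the authors summed per gene, plus 1. Scripts were tested on simulated data.

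Members and gene lists were chosen with earlier results of these data known. Named genes were the 12 largest differences in each direction (protein-coding, adjusted p under 0.05, at least 5 CPM, same sign in 4 pairs), up to 4 genes of smallest p per list at 1 CPM or more, EFNB1, EPHB2, and 5 genes of smallest p for each interaction. Others are said to be chosen after their values were seen. Same-numbered libraries deviated together, with correlations of 0.978 to 0.989 within a replicate number against 0.947 to 0.96 between, and the submitted file names tie each number to 1 experiment. Leaving out each library, subsets by treatment, other filters, scalings and offsets were tried. Depth limits only genes of few counts, and p-values cover the spread between these libraries, which may be technical.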

Additional observations from a re-analysis of the deposited data

Results flagged for a closer look

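The mitochondrial share of counts was 0.381% in EphB2 replicate 2, the lowest of 4 replicate 2 libraries that ran to 0.590%, and its gap to the nearest library passed Dixon's critical value. It was 1 such gap in 50 tests, and chance gives about 1 in 20.

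The difference between experiments depended on EphB2-Fc for 184 genes and on ephrin-B1 siRNA for 220 in edgeR, with 10 and 7 in DESeq2. For EphB2-Fc the 5 genes with the smallest p were FKBPL (log2 interaction 18.30), TSPAN7 (3.57), SFXN3 (2.18), TRIM27 (-2.11) and MAGT1 (2.33). For ephrin-B1 siRNA they were TIMM22 (6.27), VASN (-1.41), FAM83H (2.58), COL9A3 (-2.57) and FKBPL (9.33). FKBPL had 0, 7.91, 8.65 and 7.59 CPM in replicate 1 and 9.21, 0, 7.84 and 0 CPM in replicate 2, so it was at 0 in 3 libraries spread over both experiments, and its fitted values have no meaning as a size. TIMM22 and TSPAN7 also stepped between single libraries of 1 experiment. DESeq2 called SFXN3, TRIM27, MAGT1 and VASN for EphB2-Fc, and TIMM22, VASN, FAM83H and COL9A3 for the siRNA.

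Up to 4.75% of counts in a library of replicate 1 lay on transcripts that the gene annotation used here did not hold, against at most 4.13% in replicate 2, and these counts entered no comparison.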

How the results depend on the processing

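Genes that differed between experiments numbered 4715 to 7851 over the alternatives, against 7025, and 4171 with the EphB2-Fc libraries alone. At least 2-fold differences fell to 675 (602 higher, 73 lower) in limma on log2(TPM + 1), against 1248. Leaving out 1 library gave 5783 to 6454 and 1113 to 1169 genes. Without the replicate block, EphB2-Fc and ephrin-B1 siRNA changed 0 and 0 genes in edgeR, against 1032 and 2197 with it, with 1045 and 1611 at an unadjusted p under 0.05. DESeq2 with the block gave 1002 and 1893. Interactions with EphB2-Fc numbered 10 in DESeq2, 20 with filterByExpr and 18 over 12 libraries, and those with the siRNA 7, 8 and 34, then 135 with a length offset and 146 in limma. They could not be fitted with 1 library left out, since 7 libraries met 7 coefficients.

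In limma on log2(TPM + 1), which moved the median of genes of at least 5 CPM to 0.27, the signs turned for YAP targets (0.12), mitosis (0.21), heat shock (0.12) and histones (0.052), for the arms 12q (0.036), 14q (0.084), 3q (0.10), 4p (0.014), 8p (0.092) and 9p (0.10), and for ATP5F1B (0.030), C3 (0.078), CCNB1 (0.0042), HMMR (0.034), TIE1 (0.042) and XPC (0.050). All of these lay below 0.27. The sign also turned for C1S (-0.16) with the length offset, TRIM27 (1.05) with Ctrl-Fc alone and VASN (0.45) with negative control siRNA alone, and the cause was not tested. Of 4196 values of 200 genes, 170 lost their call, 30 gained one and 9 turned. Of 835 list medians, 113 moved beyond the spread of the pairs. Subtracting each arm's median, chosen after seeing the data, moved 5 lists, among them early genes to -0.28 and mitosis to -0.16.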

Other observations

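The libraries of replicate 3, which the comparison did not use, gave a further level for the genes that differed. Over 465 genes of at least 5 CPM and at least 2-fold difference, the position of replicate 3 on the log2 scale, with replicate 2 at 0 and replicate 1 at 1, had a median of 0.405 in Ctrl (quartiles 0.348 to 0.462), 0.493 in EphB2 (0.424 to 0.556), 0.476 in ephrin-B1 siRNA (0.417 to 0.543) and 0.567 in EphB2 + ephrin-B1 siRNA (0.505 to 0.640). Each value rests on 1 library per replicate number, and the quartiles are over genes, which are not replicates. The genes were picked for a large gap between replicate 1 and replicate 2, which in itself favors a position between them.

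For the arms of the largest differences, values of both steps are given side by side. The median of replicate 3 minus replicate 2 and that of replicate 1 minus replicate 3 were -0.16 and -0.19 on 3p, -0.15 and -0.16 on 11p, -0.15 and -0.14 on 4p, -0.14 and -0.14 on 12q, -0.11 and -0.20 on 19p, and 0.12 and 0.08 on 19q. Other arms had steps of opposite sign, such as -0.05 and 0.01 on 4q. Both steps share the replicate 3 libraries, so they are values side by side and not independent of each other. The arms named first were picked by the difference of replicate 1 and replicate 2, which in itself favors steps of the same sign.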
